A study of Mus musculus with 24 samples.

Results

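The mitochondrial ribosomal protein genes were described in interscapular brown adipose tissue (iBAT) of 24 mice. Members were all gene symbols of the count table that start with Mrpl or Mrps followed by a number and at most 1 further letter. This rule gave 78 of the 36144 genes in the table, 49 with an Mrpl symbol and 29 with an Mrps symbol. The symbol stands for the large (Mrpl) or small (Mrps) subunit, with exceptions such as Mrps18a and Mrps36, given below. All 78 passed the filter on low counts, which left 13129 genes for testing.

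Mitochondria carry their own ribosome, which translates the messenger RNAs encoded by mitochondrial DNA into core subunits of the respiratory chain and ATP synthase. Its proteins are encoded in the nucleus, made in the cytosol and imported. Some descend from the proteins of bacterial ribosomes and others were added during the evolution of mitochondria. Brown adipocytes are dense in mitochondria and produce heat through Ucp1, the uncoupling protein of the inner membrane. Sympathetic nerves release noradrenaline onto these cells, and mitochondrial biogenesis follows long stimulation.

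The animals formed 4 groups of 6, each with 3 males and 3 females aged 6 to 8 months. Wild-type (WT) mice were C57Bl/6J and Th-Cre mice carried the genotype label B6.129X1- Tht1(cre)Te/Kieg, in which Cre recombinase is driven by the tyrosine hydroxylase (Th) locus and so acts in catecholamine-producing cells. Each genotype received saline or deschloroclozapine (DCZ), a ligand of designer muscarinic receptors, and tissue was collected 30 minutes later. The labels do not give the receptor or how it was delivered. The comparisons ask what the ligand changed within each genotype, whether that change differed between genotypes, and how the genotypes differed under each treatment.

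Library totals ran from 11.9 to 22.9 M estimated counts. Of 15 brown adipocyte markers all 15 were tested and Ucp1 was abundant (4772 ± 782 CPM, counts scaled to library size, SD, n = 6, in the WT saline group), whereas none of 6 sympathetic neuron markers passed the filter. Skeletal muscle transcripts stood out in 6 libraries: WT saline 12, Th-Cre saline DN2086, DN2087 and DN2094, and Th-Cre DCZ DN2075 and DN2091. Their mean level over the muscle markers was at least 2.20 log2 CPM, against at most 0.47 in the other 18. All WT libraries carry lower library numbers than all Th-Cre libraries, so genotype and library number cannot be told apart. Each library is a separate mouse, per the labels.

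Together the members took 0.316 to 0.430% of all counts. In WT mice their summed level was 3976 ± 166 CPM with saline and 3920 ± 300 CPM with DCZ (SD, n = 6). In Th-Cre mice it was 3531 ± 104 CPM with saline and 3491 ± 140 CPM with DCZ. Mrpl and Mrps transcripts kept nearly the same proportion in every library: the Mrpl sum was 1.73 to 1.82 times the Mrps sum. The mean over all members of log2 CPM was 5.36 to 5.54 in WT saline and 5.26 to 5.35 in Th-Cre saline, so these groups did not overlap. Under DCZ it was 5.319 to 5.599 in WT and 5.21 to 5.33 in Th-Cre, and these groups overlapped.

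**Figure D1:**
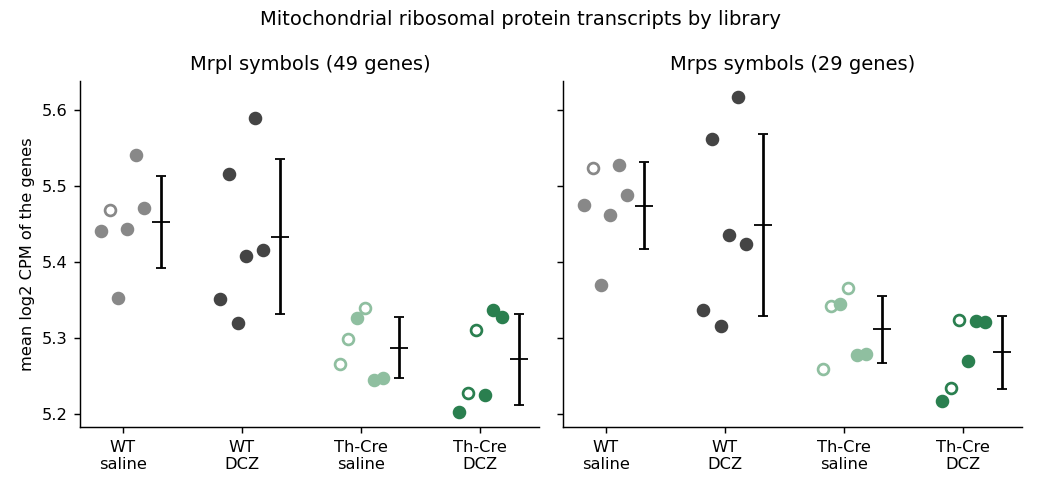
Mean log2 CPM of the 49 Mrpl genes (left) and the 29 Mrps genes (right) in each of the 24 libraries; bars give the mean and SD of 6 libraries, and open circles mark the 6 libraries with skeletal muscle transcripts. The Th-Cre libraries sit low in both panels, and the WT DCZ libraries spread most widely.

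Levels per length were compared as CPM per kilobase of exon, as geometric means over the 24 libraries. They spanned from 4.08 to 194 CPM per kb, with a median of 31.3 for Mrpl genes and 27.6 for Mrps genes. Mrps36 was highest at 194 CPM per kb. Despite its symbol, its product is now known as a component of the 2-oxoglutarate dehydrogenase complex and not of the ribosome. Mrpl42, a protein added in mitochondria, followed with 177 CPM per kb, and Mrps21 and Mrpl34, which have bacterial counterparts, each had 129 CPM per kb. Mrpl12, which forms the stalk that binds translation factors, came next with 99.1 CPM per kb. The lowest levels were those of Mrps25 (4.60 CPM per kb), Mrpl19 (4.37) and Mrpl23 (4.08). Exon length joins the transcripts of the basic GENCODE annotation that share the gene's type. A gene whose long forms are rarely used therefore reads low on this scale.

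DCZ left no member past an adjusted p of 0.05 in either genotype (edgeR quasi-likelihood F test, Benjamini-Hochberg over 13129 genes). In Th-Cre mice 0 of 78 members were called, where 0.0229% of all genes tested were called, and 0 members had an unadjusted p under 0.05, which 5.67% of all genes had. Their median log2 fold change was -0.01, and the 78 values lay between -0.23 and 0.09. Standard errors had a median of 0.08 on the log2 scale. The 4 members of smallest p were all small subunit genes, and all 4 values were negative: Mrps31, Mrps5, Mrps28 and Mrps11.

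Mrps31, a protein added in mitochondria, had lowest, median and highest values of 38.0, 39.3 and 41.1 CPM in Th-Cre saline and of 32.2, 35.8 and 37.6 CPM in Th-Cre DCZ. All 6 DCZ libraries lay below all 6 saline libraries, the only member for which this held, where 0.099% of all genes tested were lower without overlap. The log2 fold change was -0.15 (SE 0.07, adjusted p = 0.881, edgeR). Mrps5, which has a bacterial counterpart, gave -0.12 (SE 0.07) and Mrps28 gave -0.16 (SE 0.10). Mrps11 gave -0.11 (SE 0.08).

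In WT mice 0 of 78 members were called after DCZ, where 0.00762% of all genes tested were called. An unadjusted p under 0.05 was reached by 9 members, 6 of them positive, where 8.66% of all genes tested reached it, and the smallest adjusted p among members was 0.527 (edgeR). Mrps27, a pentatricopeptide repeat protein of the small subunit, had a mean of 42.2 ± 2.4 CPM in WT saline and 48.8 ± 4.9 CPM in WT DCZ (SD, n = 6), a log2 fold change of 0.21 (SE 0.06). Mrps2 gave 0.23 (SE 0.07) and Mrpl47 gave 0.20 (SE 0.07), while Mrpl55 gave -0.22 (SE 0.08). Mrpl19 was the only member without overlap (0.0686% of all genes tested were higher without overlap), at 20.4 to 21.01 CPM in WT saline and 21.2 to 26.7 CPM in WT DCZ, with an adjusted p of 0.596 (edgeR).

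The difference between the DCZ responses of the genotypes was tested as an interaction. It was called for 0 of 78 members, where 0.00762% of all genes tested were called, and 7 members had an unadjusted p under 0.05, where 7.46% of all genes did. The interaction was -0.27 (SE 0.10) for Mrps31, -0.26 (SE 0.10) for Mrps2, -0.24 (SE 0.09) for Mrps27 and -0.21 (SE 0.09) for Mrps5 on the log2 scale. The smallest adjusted p was 0.607 (edgeR), and the median over members was 0.01. The median SE was 0.11, and with 6 animals a group no member's difference in response passed the adjustment over all genes tested.

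**Figure D2:**
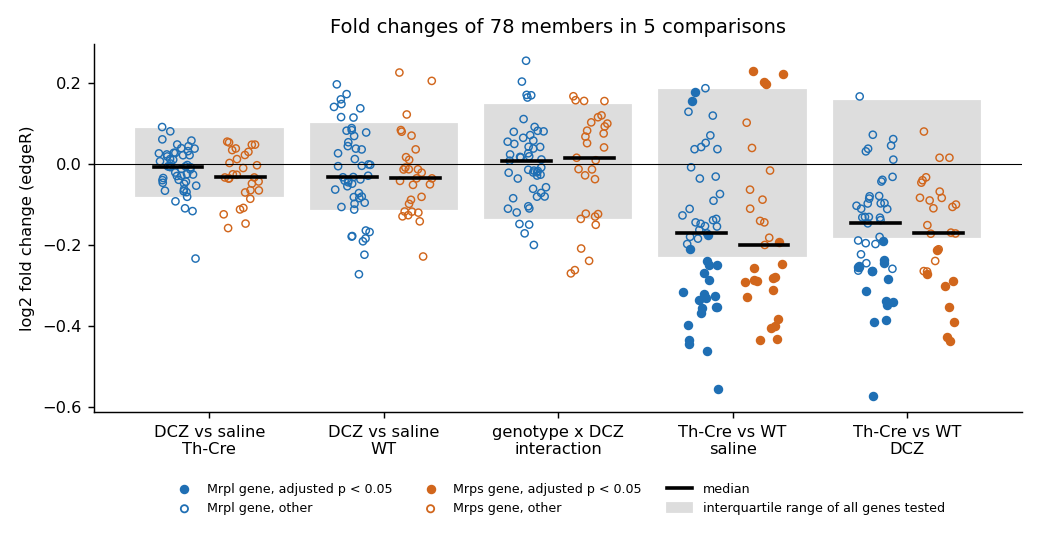
Log2 fold change of each of the 78 members in the 5 comparisons, Mrpl genes in blue and Mrps genes in orange, filled where the adjusted p was under 0.05; black bars are medians, and grey boxes give the interquartile range of all 13129 genes tested. Filled points appear in the genotype comparisons only.

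Between the genotypes many members differed, most of them lower in Th-Cre. Under saline, 36 of the 78 members were lower in Th-Cre and 6 were higher. These 42 calls are 53.8% of the members, where 24.9% of all genes tested were called; 46.2% of members and 12.4% of all genes were lower, and 12.5% of all genes were higher. The median log2 fold change was -0.18 over members and -0.01 over all genes, and 62 of 78 members had a negative value. In bulk tissue, fewer cells of a type and less RNA per cell cannot be told apart. Of the other protein-coding genes as short as the 26 shortest members, 48.1% were also lower in Th-Cre. Without the libraries with muscle transcripts 0 members were called under saline, with a median of -0.20 and 64 negative values; both are given further on. In males alone and in females alone, with 3 mice a group, 0 members were called and the medians were -0.22 and -0.17. Of all genes tested, 2.52% were lower and 2.49% higher in males, and 0.0302% and 0.0151% in females. Without the libraries with muscle transcripts these shares were 0.388% and 0.425%.

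Among genes with an Mrpl symbol, 21 of 49 were lower and 2 higher under saline, with a median of -0.17. Mrpl54, a protein added in mitochondria, had lowest, median and highest values of 29.3, 37.9 and 44.2 CPM in WT saline and of 23.8, 24.6 and 28.7 CPM in Th-Cre saline. The groups did not overlap, and the log2 fold change was -0.56 (SE 0.10, adjusted p = 0.00148, edgeR), the largest negative value of any member. Mrpl20, which has a bacterial counterpart and is needed early in large subunit assembly in bacteria, ranged from 56.7 to 83.6 CPM in WT saline and from 44.6 to 56.5 CPM in Th-Cre saline, again without overlap. On the log2 scale the difference was -0.46 (SE 0.11, adjusted p = 0.00524).

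Mrpl34, a short protein with a bacterial counterpart, had lowest, median and highest values of 78.6, 93.7 and 105 CPM in WT saline and 65.7, 67.9 and 74.0 CPM in Th-Cre saline. The groups did not overlap, and the log2 fold change was -0.40 (SE 0.08, adjusted p = 0.00281, edgeR). Mrpl52 fell from a mean of 21.7 ± 2.4 CPM in WT to 15.9 ± 1.2 CPM in Th-Cre (SD, n = 6), a log2 fold change of -0.44 (SE 0.11), without overlap. Mrpl33, the shortest member by exon length (478 bp), gave -0.43 (SE 0.11), and its groups overlapped. In all, 9 members had every Th-Cre saline library below every WT saline library, 11.5% of members, where 2.73% of all genes tested did.

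Among genes with an Mrps symbol, 15 of 29 were lower and 4 higher, with a median of -0.20. Mrps18a and Mrps36, whose products are not in the small subunit, are among the 15. Mrps16, which has a bacterial counterpart, had lowest, median and highest values of 43.8, 54.4 and 60.8 CPM in WT saline and of 38.4, 39.0 and 43.3 CPM in Th-Cre saline. The groups did not overlap, and the log2 fold change was -0.43 (SE 0.10, adjusted p = 0.00373, edgeR). Mrps34, a protein added in mitochondria and mutated in a form of Leigh syndrome, ranged from 36.4 to 52.7 CPM in WT saline and from 31.5 to 40.8 CPM in Th-Cre saline. These groups overlapped through 1 low WT library, and the log2 fold change was -0.41 (SE 0.08, adjusted p = 0.00219).

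The 6 members that were higher in Th-Cre under saline were Mrps2, Mrps31, Mrps22, Mrps27, Mrpl3 and Mrpl39. They are 7.69% of the members, below the 12.5% of all genes tested that were higher. Mrps2, which has a bacterial counterpart, had lowest, median and highest values of 46.7, 54.7 and 67.7 CPM in WT saline and of 57.3, 64.4 and 70.8 CPM in Th-Cre saline. The groups overlapped, and the log2 fold change was 0.23 (SE 0.07, adjusted p = 0.0230, edgeR). Mrps31 gave 0.22 (SE 0.07) and Mrps22 gave 0.20 (SE 0.07). Mrps27 gave 0.20 (SE 0.06), Mrpl3, the counterpart of a protein close to the peptidyl transferase centre in bacteria, gave 0.18 (SE 0.06), and Mrpl39 gave 0.16 (SE 0.06). Between 1 and 6 members were called higher when each library was left out in turn, with 1 left without WT saline 9 and 1 without WT saline 12.

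**Figure D3:**
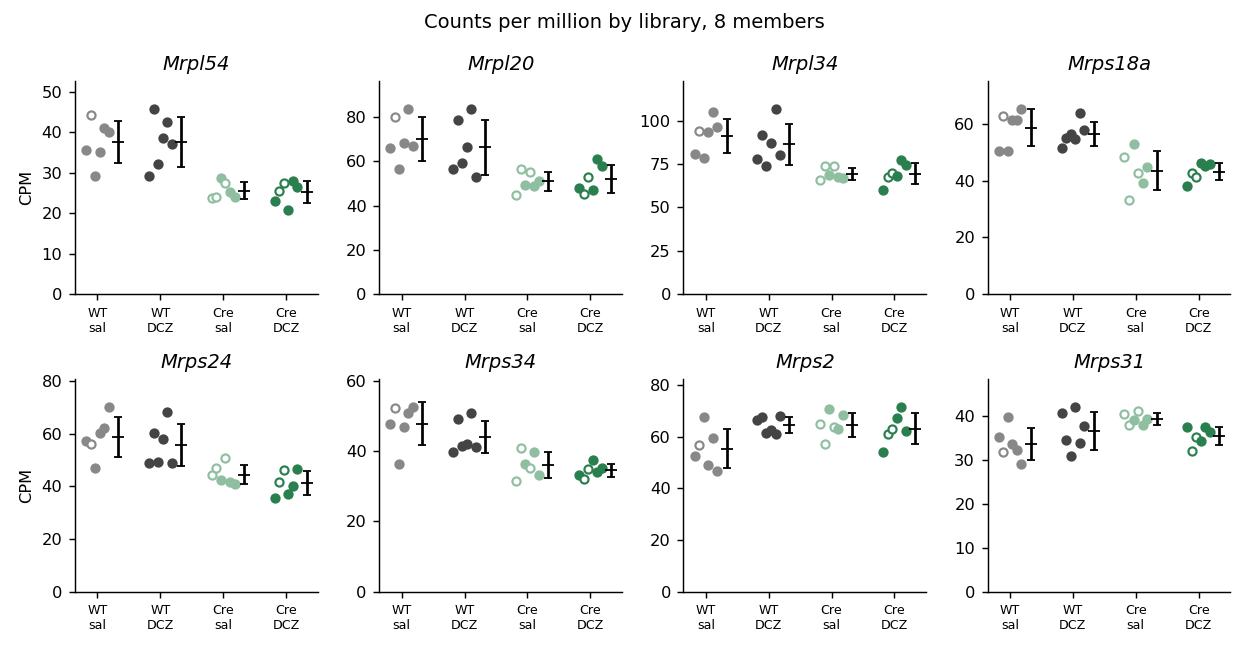
CPM in each library for 8 members, with the mean and SD of 6 libraries; open circles mark the 6 libraries with muscle transcripts. Mrpl54, Mrpl20, Mrpl34, Mrps18a, Mrps24 and Mrps34 sit lower in Th-Cre under both treatments, while Mrps2 and Mrps31 are low in WT saline.

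Under DCZ, 24 of 78 members were lower in Th-Cre than in WT and 0 were higher. These are 30.8% of the members, where 13.8% of all genes tested were called, 7.02% lower and 6.75% higher. The median over members was -0.16 and 68 of 78 values were negative. The number of lower members was 11 without WT DCZ 5 (median -0.10), 12 without Th-Cre DCZ DN2072, 15 without WT DCZ 10, 15 without Th-Cre DCZ DN2075, 16 without Th-Cre DCZ DN2097 and 13 in a fit of only the groups compared. It was 3 in males (median -0.16), 0 in females (median -0.15) and 6 without the libraries with muscle transcripts (median -0.16). In males, in females and without those libraries, 2.49%, 0.0302% and 1.63% of all genes were lower, against 3.85%, 0% and 7.69% of members. In the other settings named, 3.07 to 4.51% of all genes were lower. With all libraries, the 24 lower members comprised 16 of 49 Mrpl and 8 of 29 Mrps genes, Mrps18a and Mrps36 included. Mrpl54 again had the largest negative value, with 29.3, 37.9 and 45.8 CPM as lowest, median and highest in WT DCZ and 20.8, 25.9 and 28.0 CPM in Th-Cre DCZ. The groups did not overlap, and the log2 fold change was -0.57 (SE 0.10, adjusted p = 0.00177, edgeR).

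Mrps28 ranged from 24.99 to 34.3 CPM in WT DCZ and from 16.4 to 24.3 CPM in Th-Cre DCZ, without overlap, at -0.44 (SE 0.10, adjusted p = 0.00657, edgeR). Mrps24, the counterpart of a protein at the entry of the mRNA channel in bacteria, ranged from 48.7 to 68.3 CPM and from 35.6 to 46.8 CPM, also without overlap, at -0.43 (SE 0.10, adjusted p = 0.00752). Mrpl18, whose product has a bacterial counterpart that binds the small ribosomal RNA of the large subunit, gave -0.39 (SE 0.09), and Mrpl52 gave -0.39 (SE 0.11). In all, 8 members had every Th-Cre DCZ library below every WT DCZ library, 10.3% of members, where 1.68% of all genes tested did. None of the 6 members higher under saline was called under DCZ: Mrps2 gave -0.03 (SE 0.07) and Mrps31 gave -0.05 (SE 0.07).

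The genotype comparisons under saline and under DCZ use different libraries, and their values could be set against each other. Of the members lower in Th-Cre, 21 were lower under both treatments, 58.3% of those under saline and 87.5% of those under DCZ. For all genes tested these shares were 34.8% and 61.4%. The 21 were 13 Mrpl and 8 Mrps genes, and 66 of 78 members had the same sign in both comparisons. Across the 78 members the log2 fold changes had a Pearson r of 0.809 and a Spearman rho of 0.818, against 0.615 and 0.633 across all genes tested; genes are not independent replicates, and these are descriptions.

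**Figure D4:**
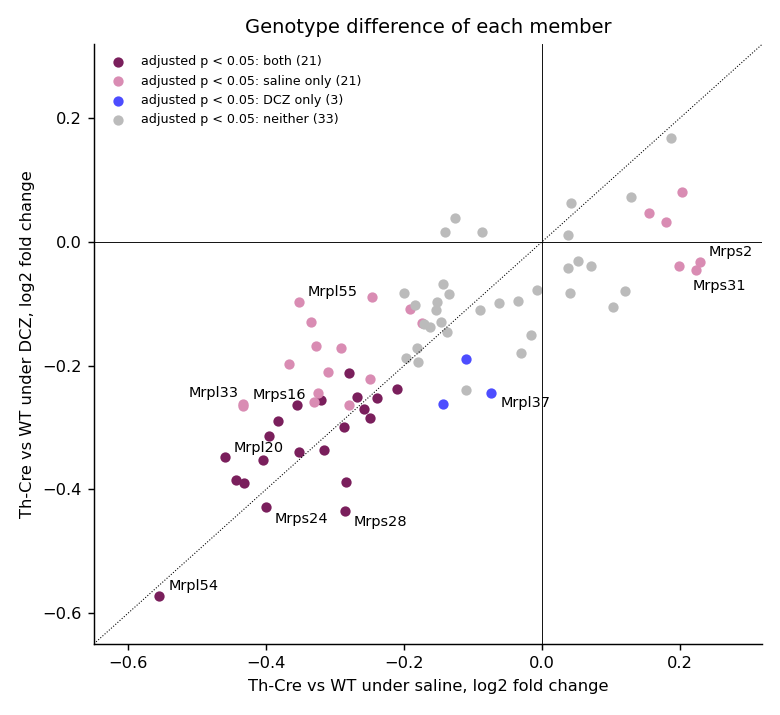
Log2 fold change of each member between Th-Cre and WT under saline (horizontal) and under DCZ (vertical), coloured by where the adjusted p was under 0.05; the dotted line marks equal values. Members lower under both treatments (21) lie toward the lower left, and those called under saline alone (21) include the 6 higher members at the right.

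By origin, 24 of 46 members with a bacterial counterpart were lower and 2 higher in Th-Cre under saline, with a median of -0.20. Of 31 proteins added in mitochondria, 11 were lower and 4 higher, with a median of -0.15. Under DCZ the lower members numbered 16 of 46 and 7 of 31. The remaining member, Mrps36, was lower under both treatments, at -0.26 (SE 0.07) under saline and -0.27 (SE 0.07) under DCZ. Of all genes tested, 12.4% were lower under saline and 7.02% under DCZ. The difference between the classes was not tested.

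Mrps18a, Mrps18b and Mrps18c are paralogues of 1 bacterial protein, and the product of Mrps18a lies in the large subunit in spite of its symbol. Mrps18a had lowest, median and highest values of 50.2, 61.4 and 65.3 CPM in WT saline and of 33.04, 43.8 and 52.9 CPM in Th-Cre saline. The groups overlapped, and the log2 fold change was -0.43 (SE 0.09, adjusted p = 0.00282, edgeR). Mrps18c gave -0.33 (SE 0.09, adjusted p = 0.0135) without overlap, and Mrps18b gave -0.31 (SE 0.08, adjusted p = 0.0104). Under DCZ Mrps18a was lower at -0.39 (SE 0.09, adjusted p = 0.00921), while Mrps18b had -0.21 (SE 0.08) and Mrps18c -0.17 (SE 0.09), neither past the threshold.

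Exon length moved with these genotype differences. Across the 78 members, exon length and the log2 fold change between genotypes under saline had a Spearman rho of 0.514, and across 12653 other protein-coding genes tested it was 0.271. Under DCZ the values were 0.496 and 0.261. In the 26 shortest members (478 to 1064 bp) the median under saline was -0.33 and 18 were lower; 551 other protein-coding genes in that range had a median of -0.32, and 48.1% of them were lower. In the next 26 the medians were -0.15 for members and -0.14 for other genes, with 10 of 26 members and 20.1% of other genes lower. In the 26 longest (up to 7605 bp) the medians were -0.13 for members and 0.04 for other genes, with 8 of 26 members and 8.18% of other genes lower.

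Under DCZ the medians of members and of other genes were -0.26 and -0.22 for the 26 shortest, -0.18 and -0.10 for the next 26, and -0.09 and 0.03 for the 26 longest. Transcript GC content moved the other way, with a rho of -0.392 across members under saline and -0.208 across other genes. The members' exons had a median length of 1380.5 bp. The part of transcript length, GC content or RNA quality in the genotype difference was not tested; the labels say that RNA integrity was measured and give no values.

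When each library's trend against exon length was taken out, the median of the members under saline was 0.00, with 13 members lower and 7 higher. These are 16.7% and 8.97% of the members, where 9.09% of all genes tested were lower and 10.5% higher. Of the 36 members lower without that step, 9 were still lower: Mrpl11, Mrpl24, Mrpl51, Mrpl57, Mrpl58, Mrps14, Mrps16, Mrps26 and Mrps35. Their exon lengths ran from 1557 bp (Mrpl24) to 4278 bp (Mrps26), all above the members' median of 1380.5 bp. Exon length here has the limit given with the levels per length, and its bearing on these calls was not tested. Mrpl15, Mrpl17, Mrpl48 and Mrps17, with exon lengths of 4696 to 7605 bp, were called lower only with that step. Mrpl41 (0.17, SE 0.06, adjusted p = 0.0462, edgeR) and Mrpl42 (0.26, SE 0.07, adjusted p = 0.0146) were called higher only with it. The values of both Mrpl41 and Mrpl42 were negative without it. Mrps16 then gave -0.43 (SE 0.10, adjusted p = 0.00514, edgeR), while Mrpl54 gave -0.16 (SE 0.06, adjusted p = 0.0683) and Mrpl34 -0.01 (SE 0.05). Of the 6 higher members, Mrps22 gave 0.40 (SE 0.08), Mrps31 0.36 (SE 0.09), Mrps2 0.29 (SE 0.07), Mrps27 0.28 (SE 0.06) and Mrpl39 0.19 (SE 0.06, adjusted p = 0.0304), each past the threshold, and Mrpl3 gave 0.11 (SE 0.06, adjusted p = 0.164) and lost the call.

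Under DCZ the median with the length trend taken out was -0.05, and 5 members were lower: Mrpl12, Mrpl51, Mrpl54, Mrpl57 and Mrps24. This is 6.41% of the members, near the 4.83% of all genes tested that were lower. All 5 were among the 24 lower without that step. Mrpl54 then gave -0.31 (SE 0.06, adjusted p = 0.00532, edgeR), Mrps24 -0.24 (SE 0.07, adjusted p = 0.0313) and Mrpl12 -0.20 (SE 0.06, adjusted p = 0.0442). Mrpl51 and Mrpl57, with annotated exon lengths of 3427 and 2877 bp, were lower under both treatments with and without that step. These members outside the rule for named genes were singled out after their values were seen.

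**Figure D5:**
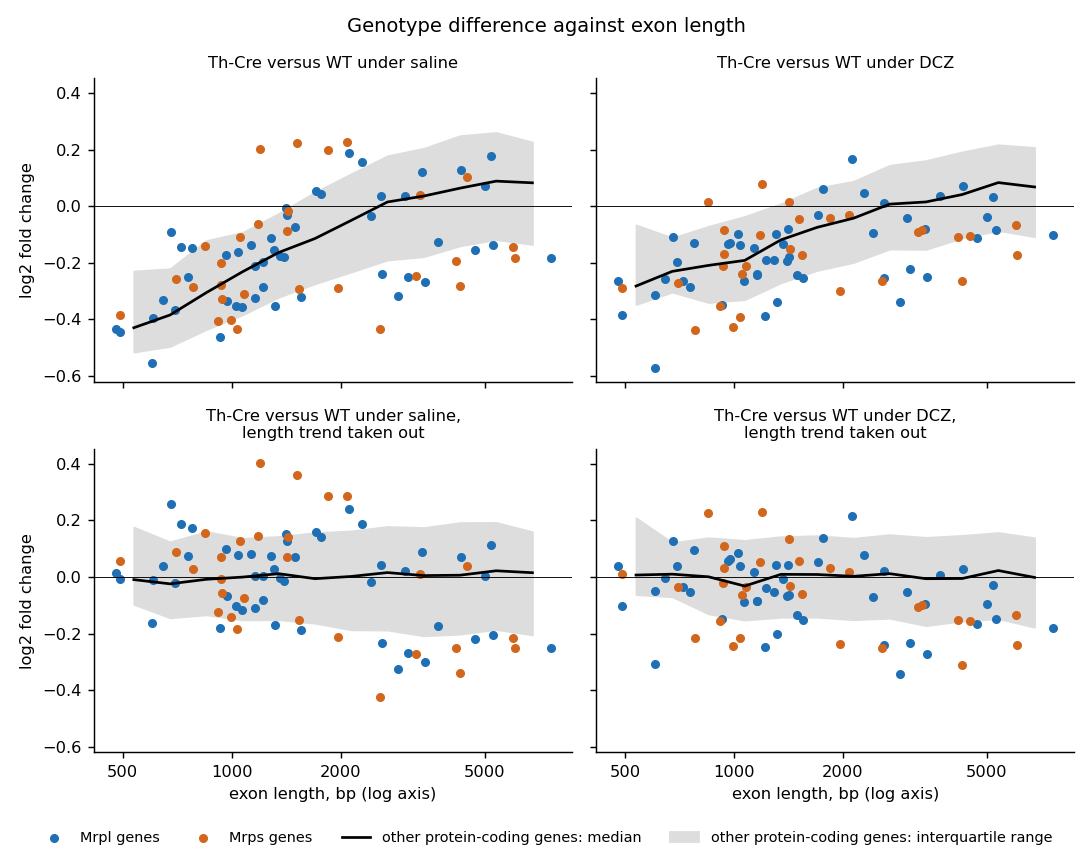
Log2 fold change between Th-Cre and WT against exon length (log axis) under saline (left) and DCZ (right), for the 78 members as points and for other protein-coding genes as the median (line) and interquartile range (grey); the lower panels have each library's length trend taken out. In the upper panels short members and short other genes both lie near -0.3 to -0.4 under saline, and in the lower panels the members spread around 0.

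Skeletal muscle transcripts also differed between libraries. Summed over the 13 muscle markers tested, levels ran from 52.3 to 359 CPM in WT mice with saline and 55.5 to 87.8 with DCZ, and from 47.0 to 1548 CPM in Th-Cre mice with saline and 48.1 to 690 with DCZ, and none of the 14 muscle markers was at 0 in all libraries. Without the 6 libraries that stood apart, 0 of 78 members were called between genotypes under saline, where 109 genes were called in place of 3270, with 5 WT and 3 Th-Cre libraries left. The median of the members was then -0.20 with 64 negative values, against -0.18 and 62 with all libraries. The part of muscle transcripts in the members' difference was not tested. Mrpl54 had -0.47 (adjusted p = 0.0655, edgeR) and Mrps24 had -0.50 (adjusted p = 0.0552). Under DCZ 6 members (7.69%) were lower without those libraries, where 1.63% of all genes were, and the median was -0.16. Mrpl54 had -0.61 (adjusted p = 0.0126, edgeR).

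Endothelial markers were lower in Th-Cre under saline for 6 of 6 genes (median -0.50) and under DCZ for 2 of 6. Their sum ran from 562 to 1013 CPM in WT mice with saline and 591 to 870 with DCZ, and from 538 to 603 CPM in Th-Cre mice with saline and 518 to 655 with DCZ, and none was at 0. Of 15 brown adipocyte markers, 4 were lower and 1 higher under saline and 3 lower and 1 higher under DCZ, with 9 of 15 values positive under saline (median 0.12) and 7 of 15 under DCZ (median -0.05). Their sum ran from 15412 to 17518 CPM in WT saline and from 12943 to 15293 CPM in Th-Cre saline. Ucp1 was lower in Th-Cre at -0.44 (SE 0.13) under saline and -0.96 (SE 0.13) under DCZ. Of 5 lymphocyte markers tested, 1 was lower under saline and 2 under DCZ. Of all genes tested, 12.4% were lower and 12.5% higher under saline, and 7.02% and 6.75% under DCZ. The part of these cell types in the members' difference was not tested.

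Windows from 250 bases before to 50 after the transcription start, from RefSeq (GRCm38.p6), were found for 69 of the 78 members, as 75 windows. The letters CCGGAAG, a core of sites for ETS factors such as GABPA, a known activator of nuclear genes for mitochondrial proteins, were in 34.7% of member windows on either strand, in 16.8% of 12840 windows of tested genes and in 8.9% of all 32851 windows. AAGATGG, a core of YY1 sites, was in 17.3%, 6.9% and 6.3%. GCATGCG, a core of NRF1 sites, was in 10.7%, 6.0% and 3.6%. The other 4 searched were CCAAT (NF-Y; 40.0%, 37.3% and 37.4%), GGGCGG (SP factors; 52.0%, 61.4% and 35.7%), CACGTG (the E-box; 9.3%, 9.7% and 7.2%) and TATAAA (the TATA box; 6.7%, 7.3% and 13.6%). No member window held the 2 cores joined as CCGGAAGATGG. Among 18 windows of members lower in Th-Cre under both treatments, 10 held CCGGAAG, and of 40 windows of members lower under neither, 7 did. GCATGCG was in 0 of the 18 and 5 of the 40, AAGATGG in 5 and 6, and CCAAT in 6 and 16. GGGCGG was in 7 and 22, CACGTG in 1 and 3, and TATAAA in 2 and 3. The same split was not made for all genes tested, and the differences were not tested. A match is a description of the letters. Exon length was not compared between the members lower under both treatments and those lower under neither. The members lower under saline, a larger set, had a median of 1052.5 bp, against 1380.5 bp for all members, which include them.

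The 3 windows below belong to the members with an ETS match, lower under both treatments, that had the largest negative values under saline; capitals mark CCGGAAG and AAGATGG on either strand (CTTCCGG is the reverse complement of CCGGAAG). They lie on the plus strand at chr14:54426659-54426958, chr17:46110754-46111053 and chr8:71464676-71464975. Mrpl52 holds 2 ETS matches and 1 YY1 match, Mrps18a 1 of each, and Mrpl34 1 ETS match.
Mrpl52: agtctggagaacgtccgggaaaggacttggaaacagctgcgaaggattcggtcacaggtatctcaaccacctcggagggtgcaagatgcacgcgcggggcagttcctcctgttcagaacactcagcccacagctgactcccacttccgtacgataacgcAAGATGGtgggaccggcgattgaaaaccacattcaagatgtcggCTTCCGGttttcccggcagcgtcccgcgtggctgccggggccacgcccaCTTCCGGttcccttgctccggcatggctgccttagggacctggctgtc
Mrps18a: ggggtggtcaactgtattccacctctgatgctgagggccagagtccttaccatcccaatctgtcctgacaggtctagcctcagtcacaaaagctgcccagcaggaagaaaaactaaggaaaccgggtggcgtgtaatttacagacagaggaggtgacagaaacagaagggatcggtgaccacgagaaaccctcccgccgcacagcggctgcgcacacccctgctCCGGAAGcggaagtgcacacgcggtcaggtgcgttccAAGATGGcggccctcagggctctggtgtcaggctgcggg
Mrpl34: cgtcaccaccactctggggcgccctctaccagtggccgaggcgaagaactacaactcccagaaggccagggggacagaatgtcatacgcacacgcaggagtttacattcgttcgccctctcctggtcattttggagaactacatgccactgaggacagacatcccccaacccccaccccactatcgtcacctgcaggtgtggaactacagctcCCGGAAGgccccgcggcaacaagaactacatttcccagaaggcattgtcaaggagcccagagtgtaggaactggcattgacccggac

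Some values rest on how reads were shared between similar or overlapping genes. Mrpl23, a protein at the exit tunnel and the member nearest to Th on chromosome 7 (352.0 kb away), had 1529 counts in all 24 libraries, while its processed copy Mrpl23-ps1 had 8292. The copy took 74.2 to 88.9% of their joint counts, so the level of Mrpl23 is uncertain. Mrpl23 itself gave -0.17 (SE 0.18, adjusted p = 0.514, edgeR) under saline, and the copy gave -0.47 (SE 0.11, adjusted p = 0.00472). The copies of Mrps36 and Mrpl48 had 10 counts or fewer. Exons of 33 members overlap those of another gene, 28 of them on the opposite strand, and the labels do not say whether strand was used. Of the 45 members without such overlap, 19 were lower and 4 higher under saline and 15 were lower under DCZ. The lower ones are 42.2% and 33.3% of the 45, where 12.4% and 7.02% of all genes tested were lower. Under saline 12.5% of all genes tested were higher.

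Genes that act with the mitochondrial ribosome are set beside all genes tested. Under saline 12.4% of all genes were lower and 12.5% higher, and 24.9% were called. Under DCZ 7.02% were lower and 6.75% higher, and 13.8% were called. Of 5 ribosome subunits without an Mrp symbol, 3 were lower in Th-Cre under saline and 1 higher. Aurkaip1, a small subunit protein, gave -0.33 (SE 0.08, adjusted p = 0.00412, edgeR) under saline and -0.30 (SE 0.08) under DCZ, the only one lower under DCZ. Gadd45gip1 gave -0.36 (SE 0.11) and Chchd1 -0.28 (SE 0.10) under saline, while Ptcd3, a pentatricopeptide repeat protein of the small subunit, was higher at 0.18 (SE 0.06).

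Of 24 assembly and rRNA modification factors, 4 were lower and 0 higher under saline (median -0.01) and 4 lower under DCZ (median -0.02). The lower genes are 16.7% of the list under each treatment, where 12.4% and 7.02% of all genes were lower. Rbfa, which matures the small subunit, gave -0.21 (SE 0.06) under both treatments, Mettl17 gave -0.23 and -0.32 (SE 0.08 for each), and Mpv17l2 gave -0.37 and -0.33 (SE 0.10 for each). Of 12 translation factors, 3 were higher and 1 lower under saline, 33.3% called where 24.9% of all genes were. The higher ones were Taco1, an activator of Cox1 translation, at 0.59 (SE 0.13), Gfm1, the elongation factor that moves the ribosome along, at 0.46 (SE 0.10), and Gfm2, a recycling factor, at 0.27 (SE 0.08). Tufm, which delivers aminoacyl-tRNA, was lower under saline at -0.21 (SE 0.05, adjusted p = 0.00896, edgeR) and under DCZ at -0.26 (SE 0.05, adjusted p = 0.00488).

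Of 22 mitochondrial aminoacyl-tRNA synthetase and amidotransferase genes, 3 were higher and 1 lower under saline and 1 lower under DCZ. These calls are 18.2% and 4.55% of the list, where 24.9% and 13.8% of all genes were called. Of 20 genes of mitochondrial DNA maintenance, transcription and RNA processing, 5 were higher and 1 lower under saline and 0 were called under DCZ (edgeR). The calls under saline are 30% of the list, where 24.9% of all genes were called. Lrpprc, which stabilises mitochondrial mRNAs, was higher at 0.50 (SE 0.10), and its partner Slirp was lower at -0.44 (SE 0.09). Among 9 transcriptional regulators, Nrf1 was lower under saline at -0.30 (SE 0.10, adjusted p = 0.0372, edgeR) and Pprc1 under DCZ at -0.39 (SE 0.12). These single calls are 11.1% of the list under each treatment, where 24.9% and 13.8% of all genes were called. Values for Ppargc1a were 0.21 and -0.45 (SE 0.18 for each) under saline and under DCZ, for Gabpa 0.18 and 0.01 (SE 0.09 and 0.08), for Esrra -0.08 and -0.24 (SE 0.08 for each) and for Tfam 0.16 and 0.04 (SE 0.08 for each), none past the threshold.

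Cytosolic ribosomal proteins were lower in Th-Cre for 70 of 76 genes tested under saline (median -0.42) and for 30 of 76 under DCZ (median -0.29). These are 92.1% and 39.5%, where 12.4% and 7.02% of all genes were lower. Among the 13 mRNAs that the mitochondrial ribosome translates, 2 were higher and 4 lower under saline and 0 were called under DCZ (edgeR). The calls under saline are 46.2% of these mRNAs, where 24.9% of all genes were called. mt-Nd5 was higher at 0.56 (SE 0.17) and mt-Nd3 lower at -0.64 (SE 0.11). All mitochondrially encoded genes together took 31.4 to 42.3% of counts, and leaving them out gave 43 and 24 members called between genotypes.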

How the data were processed

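Polyadenylated RNA of iBAT from 24 mice was sequenced. The submitters' processing notes name kallisto 0.44.0 and the genome build GRCm38.p6. Which transcripts were used, how they were summed to genes and whether strand was used is not given in the sources used here. The table analysed holds estimated counts per gene symbol, which the authors deposited in whole numbers, 11.9 to 22.9 M per library; they were not rounded or scaled before testing.

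Counts were tested with edgeR 4.0.16 (R 4.3.3) using TMM factors, filterByExpr by group and the quasi-likelihood F test. The model held all 24 libraries, 4 group means and a sex term, and p-values were adjusted by Benjamini-Hochberg over the 13129 genes tested. A call is an adjusted p under 0.05. SE was computed from the log2 fold change and the F statistic, and CPM are TMM-scaled. The common biological coefficient of variation was 15.6%. The code was tested on simulated data. P-values measure the spread between mice.

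Exon lengths and positions came from GENCODE, which gave 1 gene for each of the 78 members. The trend of log2 CPM against exon length (lowess over protein-coding genes), alone or followed by one against transcript GC content, was taken out of each library as an offset; these were chosen after seeing the data. Other alternatives used limma-voom (limma 3.58.1), DESeq2 1.42.0, other scaling, filters and subsets of libraries. Pairs of mice are not given by the labels, so no block was fitted.

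Members and lists were chosen with earlier results of these data known. Named members are, in each comparison, the 6 largest values in each direction and the 3 smallest p among those called, or the 4 smallest p where under 3 were called, plus the 3 highest and 3 lowest per length, the Mrps18 paralogues and the member nearest to Th. From other lists, genes past the threshold were named, at most 4 by smallest p in a comparison, besides 6 fixed genes. Classes by origin were assigned after values were seen.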

Additional observations from a re-analysis of the deposited data

Results flagged for a closer look

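Single libraries stood apart from the other 5 of their group in 8 of 124 cases, by Dixon's test at the 95% level (critical value 0.625 for 6 samples). A case is a named member, or the mean of the Mrpl or of the Mrps genes, in 1 group. Chance flags about 1 in 20 groups. In WT saline, library 2 was low for Mrps18b (39.61 CPM, the next at 52.08) and for Mrps34 (36.37 CPM, the next at 47.01). In the same group library 8 was high for Mrpl23 (7.514 CPM, the next at 4.464), the member with the fewest counts. In WT DCZ the high values were those of Mrpl19 in library 6 (26.68 CPM), Mrps22 in library 10 (26.19 CPM), Mrps25 in library 5 (34.94 CPM) and Mrps5 in library 4 (72.46 CPM). In Th-Cre saline, Mrpl42 was high in library DN2086 (134.3 CPM, the next at 117.3), which also held muscle transcripts. The 4 flags in WT DCZ fell on 4 different libraries.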

How the results depend on the processing

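The DCZ and interaction comparisons gave 0 called members under every alternative that gave a value, each library left out in turn included; DESeq2 gave no adjusted p for the members in WT mice. Under saline, 0 members were called between genotypes in males only (median -0.22), in females only (-0.17) and without the libraries with muscle transcripts (-0.20), against a median of -0.18; 20 were called with the length trend taken out and 22 with length and GC trends taken out, against 42. Under DCZ the numbers were 3 in males only, 0 in females only, 6 without the libraries with muscle transcripts, 13 with only the groups compared, 5 with the length trend and 8 with both trends taken out, against 24. Leaving out each library gave 28 to 45 under saline and 11 to 31 under DCZ, with 11 without WT DCZ 5, 12 without Th-Cre DCZ DN2072, 15 without WT DCZ 10 and 15 without Th-Cre DCZ DN2075. Males or females alone leave 3 mice a group, and other scaling, limma-voom, DESeq2, no filter and no term for sex gave 30 to 41 under saline and 18 to 26 under DCZ. With both trends taken out, the 22 under saline were 14 lower (17.9% of members, 9.44% of all genes) and 8 higher (10.3% and 10.4%). The 8 under DCZ were all lower (10.3% of members, 5.17% of all genes). Calls over all genes moved as well. Under saline they were 658 in males only, 6 in females only and 109 without the libraries with muscle transcripts, against 3270. Under DCZ they were 735, 30 and 535, against 1808. The cause of these shifts was not tested.

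Over all 78 members, the length trend taken out turned the sign of 25 values under saline, 7 of them called without that step, and of 20 under DCZ, 1 of them called without it. Among the 29 members named by the rule, in the comparisons followed, log2 fold changes took the other sign under saline with the length trend taken out for Mrps28 (0.029), Mrps11 (0.13), Mrpl33 (0.014), Mrps36 (0.089), Mrpl42 (0.26), Mrps21 (0.058) and Mrpl23 (0.099), and with both trends taken out for Mrps28 (0.050), Mrps11 (0.16), Mrpl52 (0.058), Mrpl34 (0.071), Mrps36 (0.056), Mrpl42 (0.22), Mrps21 (0.048), Mrpl19 (-0.033) and Mrpl23 (0.14). Under DCZ they did so with the length trend taken out for Mrps31 (0.057), Mrps27 (0.032), Mrps2 (0.018), Mrpl55 (0.085), Mrpl3 (-0.028), Mrpl33 (0.039), Mrpl42 (0.13), Mrps21 (0.010), Mrpl23 (0.057) and Mrps18c (0.031), and with both taken out for Mrps31 (0.046), Mrps27 (0.021), Mrpl55 (0.10), Mrpl3 (-0.046), Mrpl33 (0.018), Mrpl42 (0.11), Mrpl23 (0.071) and Mrps18c (0.014). In females only, Mrps11 had 0.024 under saline and Mrpl19 0.067 under DCZ; in males only, Mrpl23 had 0.086 under saline and Mrps31 0.023 under DCZ. With each library left out, Mrpl23 ran from -0.27 to 0.037 under saline, and under DCZ Mrps2 ran from -0.065 to 0.00019 and Mrpl19 from -0.089 to 0.018. Of the 1720 values under an alternative for these 70 pairs of named member and comparison, 1465 kept direction and side of the threshold, 206 lost the call, 7 gained it and 42 took the other sign. Depth limits Mrpl23 most, with 1529 counts; the other members had at least 6581 counts in all libraries.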

Other observations

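The term for sex was called for 2 of 78 members (2.56%), where 8.07% of all genes tested were called (edgeR). Mrpl46 had means of 25.4 CPM in males and 28.8 CPM in females, a log2 difference of males minus females of -0.18 (adjusted p = 0.0431). Mrps17 had means of 38.0 and 41.95 CPM, a difference of -0.14 (adjusted p = 0.0441).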
